A study of Mus musculus with 4 samples.

Results

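The Krüppel-like factors (KLFs) are transcription factors that bind CACCC and GC-rich boxes through zinc fingers at their carboxyl end. This account follows 10 of them, Klf2, Klf3, Klf4, Klf5, Klf6, Klf7, Klf9, Klf10, Klf13 and Klf15, in cells of the mouse ascending aorta and aortic arch. They were found by matching the Ensembl gene identifiers of the deposited table to gene symbols, which gave 10 of the 32948 genes in the table. All 10 were among the 15055 genes with enough counts to be tested.

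The cells came from Wnt1-Cre;Rosa26-mTmG mice, and every group carried both alleles. In this strain the membrane protein tdTomato is made by default, and Cre recombinase switches a cell and all its progeny to membrane GFP. The neural crest is where Wnt1-Cre is active, so GFP marks cells with a neural crest history and tdTomato marks the other cells of the same tissue. The 4 libraries were female GFP and female tdTomato, sorted from 1 female sample, and male GFP and male tdTomato, sorted from a pool of 2 male samples. Each combination of sex and colour was 1 library with no replicate, and the 2 suspensions differed in sex, in pooling and in digestion as well. No treatment or age was given in the sources used here.

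Libraries held 10094326 to 13911281 estimated counts. The labels call all of them vascular smooth muscle cells, although the sort used fluorescence alone, and all 6 smooth muscle markers checked were detected in every library (summed levels of 11933 to 16412 CPM, the counts scaled to a common library size). Of 6 endothelial markers, 5 (Cdh5, Tek, Ptprb, Kdr and Emcn) were at 3 counts or fewer in both GFP libraries. The summed level of the 6 was 15.7 (female) and 11.8 (male) CPM in GFP, with 350.4 and 208 in tdTomato. The 5 macrophage markers summed to 6.41 (female) and 0.319 (male) CPM in GFP, with 19.1 and 73.9 in tdTomato. In GFP 4 (female) and 5 (male) of them were at 3 counts or fewer. The female GFP sum was all Csf1r, which was higher there than in female tdTomato (4.75 CPM). The 5 Schwann cell markers went the other way, at 257 (female) and 109 (male) CPM in GFP, with 8.23 and 11.7 in tdTomato, with Sox10 at 3 counts or fewer in all 4 libraries. The part of these cell types in the KLF ratios was not tested. Male GFP stood apart, since 9.55% of the genes that reached 50 CPM in each tdTomato library had 3 counts or fewer there, against 1.41% in female GFP. Both GFP libraries detected fewer genes than the tdTomato libraries. At 10 counts or more there were 11942 (female) and 9439 (male) genes in GFP, with 16136 and 15593 in tdTomato. The part of this in values lower in GFP was not tested.

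As background, members of this family divide into activators and repressors. Klf2 and Klf4 are raised in endothelium by blood flow through the kinases MEKK3, MEK5 and ERK5 and the MEF2 factors. In smooth muscle, Klf4 and Klf5 act on the change from a contractile to a dividing, matrix-making cell, with Klf4 repressing contractile genes. Klf9 and Klf15 are induced by glucocorticoids, Klf10 by TGF-beta, and Klf2, Klf4, Klf6 and Klf10 also respond quickly to stress and tissue handling.

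Most KLF messenger RNA in these cells came from 4 genes. Per kilobase of exon, which allows levels to be compared between genes, Klf4, Klf2, Klf9 and Klf6 made up 95.9% (GFP) and 93.6% (tdTomato) of the summed level of the 10 members in the female sample and 86.6% (GFP) and 92.3% (tdTomato) in the male pool. Klf4 was first in all 4 libraries, at 494 and 365 CPM per kilobase in female GFP and tdTomato and 276 and 412 in male GFP and tdTomato. Per kilobase its share of the 10 hardly varied, at 38.6%, 38.6%, 39.0% and 39.4% in the same order. By counts not divided by exon length its share was 36.8%, 35.5%, 28.2% and 37.4%, lowest in male GFP. Klf5 was last in all 4, at 3.70 CPM per kilobase or less.

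The second place differed between libraries. Klf2 held it in both female libraries and in male tdTomato, with 32.4%, 31.0% and 33.1% of the summed level per kilobase. In male GFP, Klf2 held 10.8% and came behind Klf9 at 22.9% and Klf6 at 13.9%. Klf3 held 6.97% there, against 0.430% to 1.86% elsewhere. This order depends on the division by exon length. By counts alone Klf9 came before Klf2 in female GFP (21.9% and 18.7%) and in female tdTomato (21.4% and 17.3%). In male GFP, Klf3 then held 18.6%, ahead of Klf6 at 14.5% and Klf2 at 4.76%.

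**Figure D1:**
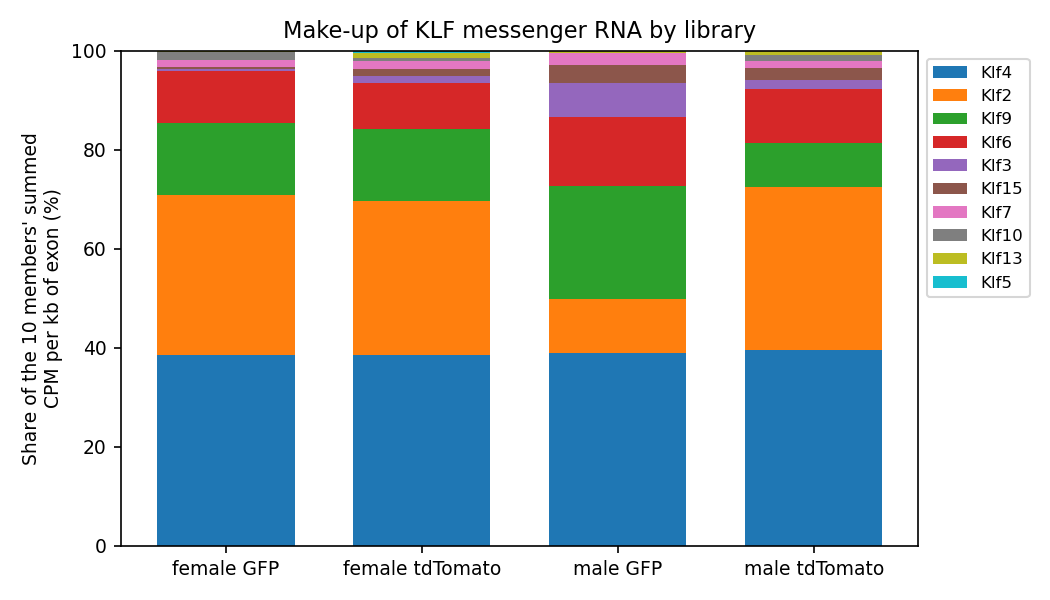
Each bar is 1 library and sums to 100%, with the share of each member in the 10 members' summed CPM per kilobase of exon on the y axis (exon lengths from GENCODE vM21). The Klf4 segment stays between 38.6% and 39.4%, while Klf2 falls to 10.8% in male GFP, where Klf3 and Klf15 widen.

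Together the 10 genes took 0.378%, 0.337%, 0.277% and 0.363% of the counts in the female GFP and tdTomato and the male GFP and tdTomato libraries. Klf4 stood at percentiles 99.0 to 99.6 of the tested genes by CPM, and Klf9 at 98.1 to 99.0. Klf2 stood at 98.5 to 98.9 in 3 libraries and at 88.8 in male GFP. Klf10 ranged from percentile 51.7 in male GFP to 83.6 in female GFP.

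The first comparison set GFP against tdTomato within each suspension. No member passed the test. edgeR's quasi-likelihood test with the suspension as a block called 0 of 10 members at an adjusted p under 0.05, and it called 0% of all 15055 genes. At an unadjusted p under 0.05 it gave 0 of 10 members, beside 8.62% of all genes. DESeq2 called 0 of 10 members and 7.37% of all genes, and limma-voom called 0 genes. With 2 pairs and 1 residual degree of freedom, a gene that misses the threshold is not shown to be alike in both colours.

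Among members at least 2-fold apart, more were lower than higher in GFP, as was the case for all genes. Klf5 and Klf13, 2 of 10, were lower in GFP by 2-fold or more in both pairs, a share close to the 22.9% of all genes, and 0 of 10 were at least 2-fold higher in both (5.17% of all genes). The median log2 ratio of GFP over tdTomato over the 10 members was 0.40 for the female sample and -0.40 for the male pool. Over all tested genes the same medians were -0.27 and -0.998. In the female pair 4 of 10 members were lower in GFP by 2-fold or more (37.8% of all genes) and 1 was higher by that much (22%). In the male pair 4 were lower by 2-fold or more (50%) and 1 was higher (21.5%), but they were not the same members. Only Klf5 and Klf13 stood on the lower side in both. Without the male GFP library, Klf3, Klf5 and Klf15 were at least 2-fold lower in female GFP than in each tdTomato library. Without the female GFP library, Klf2, Klf5, Klf10 and Klf13 were lower in male GFP than in each tdTomato library by 2-fold or more. Klf3 was higher by that much. The shares of all genes with a GFP library left out were not counted, so these members have no background to be read against.

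**Figure D2:**
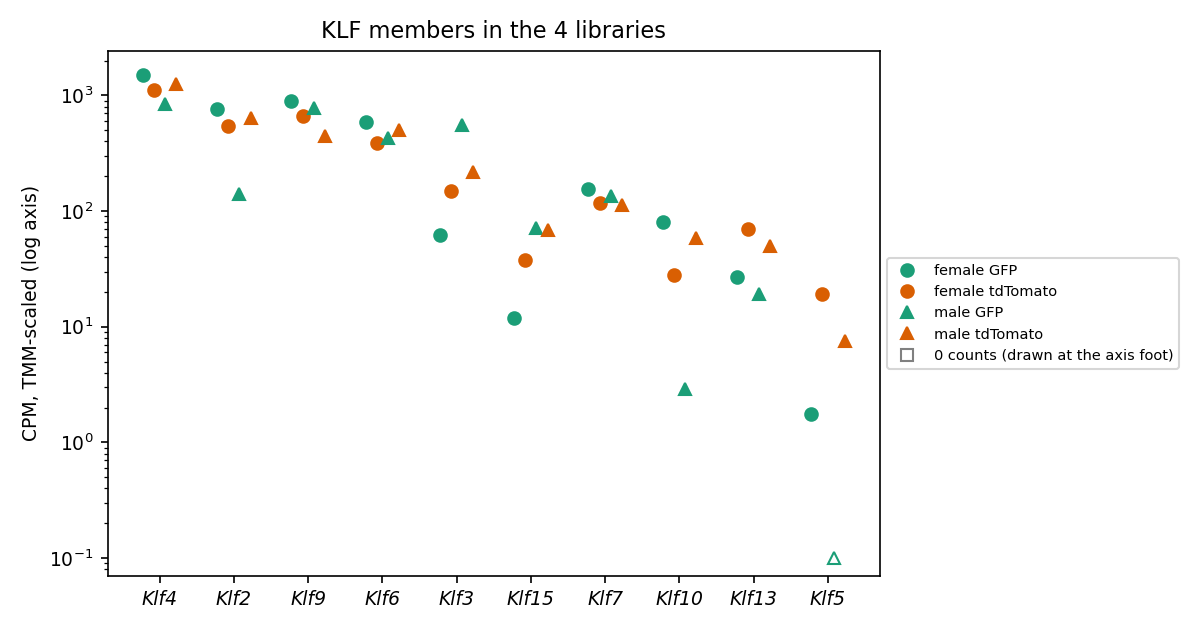
TMM-scaled CPM on a log axis for the 10 members, ordered by mean level per kilobase; circles are the female suspension, triangles the male pool, green GFP and orange tdTomato, 1 library a point, and an open symbol is 0 counts. Klf10 spans 2.87 to 80.5 CPM, whereas Klf7 spans 114 to 154 CPM.

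Klf2 and Klf4, the flow-responsive pair, were abundant in both colours. Both were lowest in male GFP, Klf2 by the larger fold. Klf2 (ENSMUSG00000055148) measured 766 (GFP) and 542 (tdTomato) CPM in the female sample, and 142 (GFP) and 638 (tdTomato) CPM in the male pool. Male GFP alone was low, and the colours overlapped. Within the pairs, Klf2 in the female sample was 1.41-fold higher in GFP (95% exact binomial interval 1.37 to 1.46), and GFP of the male pool was 4.51-fold lower (4.26 to 4.78). These intervals, here and below, cover counting error only, since the reads were amplified by PCR and carried no molecular identifiers. The log2 ratios of GFP over tdTomato averaged -0.84 ± 1.89 (SD, n = 2 pairs), a spread wider than the mean.

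Klf4 (ENSMUSG00000003032) measured 1507 (GFP) and 1114 (tdTomato) CPM in the female sample, and 840.5 (GFP) and 1255 (tdTomato) CPM in the male pool. GFP of the female sample was 1.35-fold higher (1.33 to 1.38), and GFP of the male pool was 1.49-fold lower (1.45 to 1.53). The highest and the lowest value were both GFP libraries, so the colours overlapped. The mean log2 ratio was -0.07 ± 0.72 (SD, n = 2 pairs), and its sign turned to 0.11 with DESeq2's size factors. Both genes are known as endothelial factors. Of the 6 endothelial markers, 5 were at 3 counts or fewer in both GFP libraries and Pecam1 measured 15.2 (female) and 11.8 (male) CPM there, and the part of endothelial cells in these levels was not tested.

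The sequence just upstream of these genes is shown because the route that raises Klf2 ends on MEF2 factors. The RefSeq table of promoters (build GRCm38.p6, 250 bases before to 50 after each start) held windows for 8 of the 10 members. Klf5 and Klf10 had none. Searched on both strands were CACCC and the GC box GGGCGG. The element of AP-1 (the Fos and Jun dimer), spelled TGANTCA, was searched too, as were the MEF2 site and the CArG box of serum response factor. Printed 5′ to 3′ on the strand of the gene are the 200 bases from 250 to 51 before the start of Klf2 (chr8:72318812-72319011, plus strand), Klf4 (chr4:55532526-55532725, minus strand) and Klf9 (chr19:23140976-23141175, plus strand). Capitals mark the MEF2 site in Klf2, GGGCGG on either strand in Klf4 and TGANTCA in Klf9.
Klf2: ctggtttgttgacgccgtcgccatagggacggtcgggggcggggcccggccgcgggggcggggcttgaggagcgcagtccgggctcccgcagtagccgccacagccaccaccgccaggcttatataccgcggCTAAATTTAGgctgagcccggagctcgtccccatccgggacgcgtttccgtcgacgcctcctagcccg
Klf4: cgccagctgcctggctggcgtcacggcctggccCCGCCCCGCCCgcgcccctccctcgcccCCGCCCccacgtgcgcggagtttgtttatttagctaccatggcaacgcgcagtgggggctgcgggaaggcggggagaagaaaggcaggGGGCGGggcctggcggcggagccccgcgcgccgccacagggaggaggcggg
Klf9: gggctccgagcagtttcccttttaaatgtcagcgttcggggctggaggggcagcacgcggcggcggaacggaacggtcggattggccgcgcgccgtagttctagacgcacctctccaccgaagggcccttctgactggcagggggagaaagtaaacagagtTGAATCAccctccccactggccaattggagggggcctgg

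Klf2 alone of the 8 windows held a MEF2 site, 118 to 109 bases before the start, a match present in 0.557% of the 32851 promoters in the table. Klf4 held 4 GGGCGG matches, of which 1 pair shared a base, and no CACCC. Klf9 alone held TGANTCA, at 89 to 83 bases before the start and overlapping a CACCC at 84 to 80, and 7.81% of all promoters held that element. Klf3 held the most CACCC matches, 5, whereas Klf4 and Klf6 held 0, and 57.5% of all promoters had at least 1. GGGCGG was found in 7 of 8 windows, all but Klf9, and in 35.7% of all promoters. The CArG box was in 0 of 8 windows and in 1.63% of all promoters. The windows were rich in G and C, from 58.3% in Klf7 to 76.7% in Klf3, against a median of 52.7% over all promoters. A match describes letters and does not show that a factor binds.

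**Figure D3:**
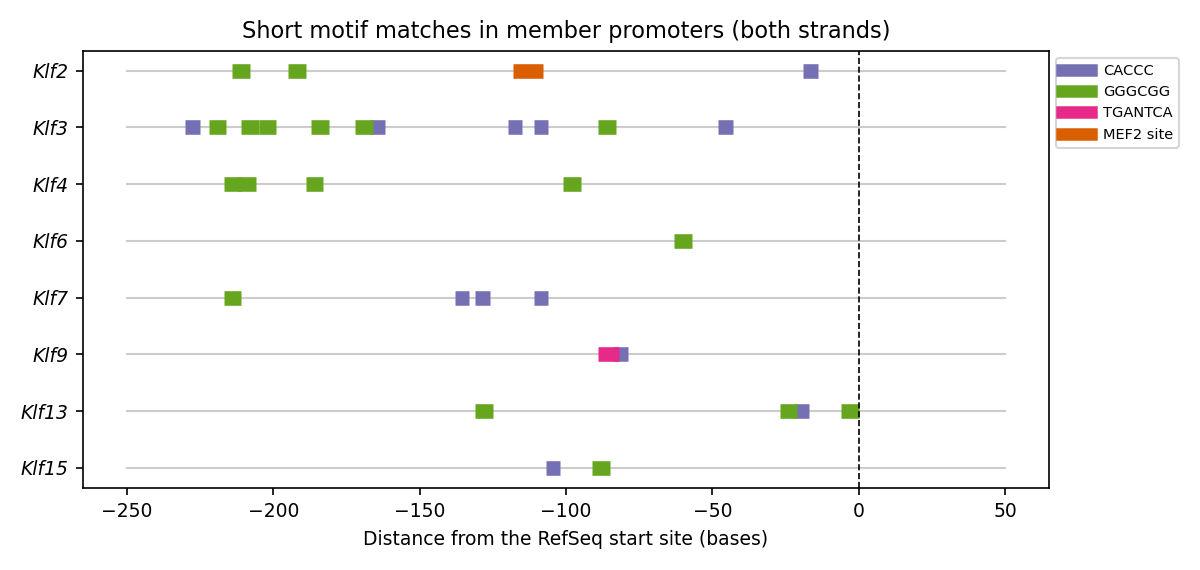
Matches on both strands in the RefSeq promoter windows of 8 members, by distance in bases from the start site (dashed line); bars are drawn at the length of each motif. The MEF2 site appears only in the Klf2 window and TGANTCA only in the Klf9 window.

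The fixed list of genes on the route to Klf2 and Klf4 (MEKK3, MEK5, ERK5, MEF2 and the CCM proteins that restrain it) had 11 members, all tested, of which edgeR called 0. In both pairs 3 of 11 lay 2-fold or more below tdTomato and 3 lay 2-fold or more above, beside 22.9% and 5.17% of all genes, the shares against which the counts of the lists below are also to be read. Mef2a, a MEF2 factor, measured 298 and 860 CPM in female and male GFP against 122 and 131 CPM in tdTomato, so both GFP libraries lay above both tdTomato libraries. Mef2c measured 321 (female) and 206 (male) CPM in GFP, with 181 and 171 in tdTomato. Pdcd10, the CCM3 protein, measured 321 (female) and 495 (male) CPM in GFP, with 136 and 113 in tdTomato. Map3k3, which encodes MEKK3, measured 37.9 CPM in female GFP and had 0 counts in male GFP, with 4.48 (female) and 5.47 (male) CPM in tdTomato. Map3k3, Mapk7, Map3k2 and Ccm2 were chosen after their values were seen. Heg1, the membrane partner of the CCM proteins, had 1 and 0 counts in GFP, with 246 (female) and 85.3 (male) CPM in tdTomato. It entered the test through tdTomato alone, and DESeq2 called it (adjusted p = 0.00211).

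Endothelial genes known to lie under Klf2 and Klf4 were also listed, without a split into genes raised and genes lowered by them. Of the 10 listed, 7 were tested and 4 were lower in GFP by 2-fold or more in both pairs, with 0 called by edgeR. DESeq2 called 3 of the 7, S1pr1, Tek and Kdr, beside 7.37% of all genes. Their medians were -4.79 and -4.40 (log2), beside -0.27 and -0.998 over all genes. S1pr1, a lipid receptor, had no count in GFP of either sex and reached 62.5 (female) and 45.9 (male) CPM in tdTomato, so that it entered the test through tdTomato alone. Thbd, thrombomodulin, measured 130 (GFP) and 146 (tdTomato) CPM in the female sample, but had 0 counts in male GFP against 239 CPM in male tdTomato. Vcam1, an adhesion molecule, measured 31.9 (female) and 136 (male) CPM in GFP, with 109 and 266 in tdTomato. Angpt2, a ligand of the receptor Tek, went the other way in the male pool, at 7.998 (female) and 495 (male) CPM in GFP, with 37.2 and 23.4 in tdTomato. Edn1, 1 of the 4 genes lower in both pairs, measured 1.19 (female) and 22.4 (male) CPM in GFP, with 37.2 and 64.8 in tdTomato. Tek and Kdr, 2 others of those 4 genes, had 1 count or fewer in each GFP library. Like S1pr1, they entered the test through tdTomato alone. A lower value in GFP was thus fixed beforehand for these genes, on which the medians rest in part. Tek and Kdr are also among the 6 endothelial markers given above, whose part in the values of the other genes was not tested. In bulk libraries fewer cells of a type and less RNA per cell cannot be told apart.

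Contractile smooth muscle genes, which Klf4 is known to repress, numbered 8, all tested, with 0 called by edgeR and 0 at least 2-fold apart in both pairs in either direction. Their medians were 0.13 and 0.30 (log2). Acta2, smooth muscle actin, measured 6738 (female) and 4083 (male) CPM in GFP, with 4890 and 3692 in tdTomato, and Tagln measured 3722 (female) and 2406 (male) CPM in GFP, with 3027 and 3405 in tdTomato. Myh11, the smooth muscle myosin heavy chain, measured 1337 (female) and 2399 (male) CPM in GFP, with 1257 and 1112 in tdTomato. In male GFP, Myh11 was the highest of the 4 libraries and Tagln the lowest. Of 8 genes of the modulated smooth muscle cell, 6 were tested, 2 were lower in GFP by 2-fold or more in both pairs and edgeR called 0. Lgals3, 1 of those 2, had 0 counts in both GFP libraries and entered the test through tdTomato alone, and DESeq2 called it (adjusted p = 0.0143). Myh10, a non-muscle myosin, measured 344 (female) and 597 (male) CPM in GFP, with 422 and 263 in tdTomato. Ly6a, the surface protein Sca1, measured 38.8 CPM in female GFP and had 0 counts in male GFP, with 145 (female) and 107 (male) CPM in tdTomato.

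Klf5, the other factor of smooth muscle modulation, was the least abundant member and the most uneven by colour. Klf5 (ENSMUSG00000005148) measured 1.74 (GFP) and 19.3 (tdTomato) CPM in the female sample, and 0 counts in male GFP against 7.55 CPM in male tdTomato. Both GFP libraries lay below both tdTomato libraries, which held for 2 of 10 members (29.3% of all genes). tdTomato was 11.05-fold higher in the female suspension (7.16 to 17.9). The male pool differed at least 23.7-fold, the 0 counts of GFP being set to a floor of 3. The average log2 ratio, with a prior count of 2, was -4.48 ± 1.60 (SD, n = 2 pairs). edgeR's quasi-likelihood test gave it the smallest adjusted p of the members, 0.887, DESeq2 gave an adjusted p of 0.128 and limma-voom an adjusted p of 0.374. The female GFP value rests on 22 counts. Without the female GFP library the log2 ratio was -6.27, and without the male GFP library -2.67.

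Klf6 and Klf7 have closely related zinc fingers, Klf6 being an early responder to injury and Klf7 a factor of developing neurons. Klf6 (ENSMUSG00000000078) measured 590 (GFP) and 387 (tdTomato) CPM in the female sample, and 431 (GFP) and 503 (tdTomato) CPM in the male pool. GFP of the female sample was 1.52-fold higher (1.47 to 1.58), and GFP of the male pool was 1.17-fold lower (1.12 to 1.21). That male ratio changed sign with DESeq2's size factors, from -0.22 to 0.02 (log2).

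Klf7 (ENSMUSG00000025959) was the most even member, at 154 (GFP) and 118 (tdTomato) CPM in the female sample and 136 (GFP) and 114 (tdTomato) CPM in the male pool. Both GFP libraries lay above both tdTomato libraries. GFP was 1.31-fold higher in the female sample (1.23 to 1.40) and 1.19-fold higher in the male pool (1.11 to 1.28), with log2 ratios averaging 0.32 ± 0.10 (SD, n = 2 pairs). edgeR's quasi-likelihood test gave an unadjusted p of 0.779. Klf7 shares 3196 exon bases with a gene on the opposite strand, and the kit does not mark strand, so reads of the pair cannot be told apart.

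Klf9 and Klf15 are the glucocorticoid-induced members, Klf15 being also a regulator of amino acid and lipid use. Klf9 (ENSMUSG00000033863) measured 898 (GFP) and 669.6 (tdTomato) CPM in the female sample, and 780.4 (GFP) and 442 (tdTomato) CPM in the male pool. GFP of the female sample was 1.34-fold higher (1.30 to 1.38), and GFP of the male pool was 1.77-fold higher (1.71 to 1.83). With Klf7 it was 1 of 2 members whose GFP libraries both lay above both tdTomato libraries (11.5% of all genes). Its mean log2 ratio was 0.62 ± 0.28 (SD, n = 2 pairs), positive under every scaling tried, with an adjusted p of 1 from edgeR's quasi-likelihood test.

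Klf15 (ENSMUSG00000030087) measured 12.0 (GFP) and 37.4 (tdTomato) CPM in the female sample, and 71.1 (GFP) and 68.8 (tdTomato) CPM in the male pool. Female GFP alone was low. The female pair differed 3.13-fold (2.61 to 3.77, lower in GFP), and the male pair differed by less than counting error (1.03-fold, 0.934 to 1.14).

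Of 7 genes in the list of the glucocorticoid receptor and its targets, all tested, edgeR called 0, and 1, Tsc22d3, was lower in GFP by 2-fold or more in both pairs. Tsc22d3 measured 4.83 CPM in female GFP and had 0 counts in male GFP, with 74.6 (female) and 68.7 (male) CPM in tdTomato, and DESeq2 called it (adjusted p = 0.0319). Nr3c1, the receptor itself, measured 115 (female) and 35.3 (male) CPM in GFP, with 195 and 194 in tdTomato. Dusp1, a phosphatase, measured 1810 (female) and 1321 (male) CPM in GFP, with 987 and 1459 in tdTomato. Sgk1, a kinase, measured 1219 (female) and 1681 (male) CPM in GFP, with 897 and 946 in tdTomato. As for Klf9, both GFP libraries lay above both tdTomato libraries for Sgk1.

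Klf3 and Klf13 are mainly repressors, Klf3 working through the corepressor CtBP and Klf13 through SIN3A. Klf3 (ENSMUSG00000029178) measured 62.0 (GFP) and 148 (tdTomato) CPM in the female sample, and 554.5 (GFP) and 218 (tdTomato) CPM in the male pool. The GFP libraries held both its lowest and its highest value. It was 2.39-fold lower in GFP in the female pair (2.20 to 2.60) and 2.54-fold higher in the male pool (2.43 to 2.66), so that its mean log2 ratio of 0.05 ± 1.84 (SD, n = 2 pairs) describes neither pair. Klf3 shares 404 exon bases with a gene on the opposite strand that had at most 12.6 counts in any library.

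Klf13 (ENSMUSG00000052040) measured 27.2 (GFP) and 70.2 (tdTomato) CPM in the female sample, and 19.2 (GFP) and 50.1 (tdTomato) CPM in the male pool. Both GFP libraries lay below both tdTomato libraries, and the 2 pairs gave nearly the same difference, 2.59-fold (2.29 to 2.93) and 2.62-fold (2.22 to 3.10). The mean log2 ratio was -1.37 ± 0.01 (SD, n = 2 pairs). edgeR's quasi-likelihood test, which draws on the spread of all genes, gave an unadjusted p of 0.480 and an adjusted p of 1.

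The list of corepressors, coactivators and ubiquitin ligases that act on KLF proteins had 13 genes, of which 12 were tested and edgeR called 0. In both pairs 4 of 12 lay 2-fold or more below tdTomato and 0 lay 2-fold or more above. Crebbp, a histone acetyltransferase, measured 346 (female) and 206 (male) CPM in GFP, with 181 and 205 in tdTomato, and its relative Ep300 measured 57.1 (female) and 210 (male) CPM in GFP, with 64.5 and 109 in tdTomato. Kat2b, also an acetyltransferase, measured 9.27 (female) and 32.4 (male) CPM in GFP, with 93.6 and 109 in tdTomato. Wwp1, a ligase of Klf2 and Klf5, had 15 and 1 counts in GFP, with 67.5 (female) and 62.3 (male) CPM in tdTomato, and DESeq2 called it (adjusted p = 0.0139). In the male pair 9 of 12 lay 2-fold or more below tdTomato, against 4 of 12 in the female pair, beside 50% and 37.8% of all genes. Of the 13 genes 6 had 0 counts in male GFP, among them Sap30, which was not tested. Over tested genes alone, 3522 of 15055 had 0 counts there.

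Klf10, the TGF-beta-induced early gene, had the widest range of the 9 members with counts in every library. Klf10 (ENSMUSG00000037465) measured 80.5 (GFP) and 27.8 (tdTomato) CPM in the female sample, and 2.87 (GFP) and 58.6 (tdTomato) CPM in the male pool. The 2 GFP libraries were the highest and the lowest. GFP of the female sample was 2.90-fold higher (2.58 to 3.26), and GFP of the male pool was 20.4-fold lower (13.9 to 31.1), and the male GFP value rests on 27 counts. The mean log2 ratio was -1.37 ± 4.11 (SD, n = 2 pairs).

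Of 7 TGF-beta receptors and SMADs, all tested, edgeR called 0, 1 was at least 2-fold higher in GFP in both pairs and 0 were at least 2-fold lower. That gene was Tgfbr1, the type I receptor, at 717 (female) and 352 (male) CPM in GFP, with 300 and 115 in tdTomato. Tgfbr2 measured 118 (female) and 115 (male) CPM in GFP, with 107 and 29.6 in tdTomato. Smad7, the inhibitory SMAD, measured 103 (female) and 94.7 (male) CPM in GFP, with 152 and 83.7 in tdTomato.

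Klf2, Klf4, Klf6 and Klf10, 4 of 10 members, were higher in GFP in the female pair and lower in the male pair (26.8% of all genes), the male ratio of Klf6 changing sign with DESeq2's size factors. Klf3 and Klf15, 2 of 10, had the reverse signs (19.5% of all genes), although the male ratio of Klf15 turned negative when libraries were scaled by their totals. Of 8 early response genes, which cells raise within minutes of stress or digestion, 7 had the signs of the first 4 (26.8% of all genes) and Fos did not, although the male ratio of Fosb (-0.14) is smaller than the shift of 0.24 with size factors, and the female ratio of Jun (0.08) than the shift of -0.22 with library totals. Fos measured 13819 (female) and 7828 (male) CPM in GFP, with 8293 and 6676 in tdTomato, Egr1 4389 (female) and 2397 (male) CPM in GFP, with 2505 and 3702 in tdTomato, and Atf3 1096 (female) and 276 (male) CPM in GFP, with 535 and 604 in tdTomato. Over these 8 genes the log2 ratios had medians of 0.76 (female) and -0.86 (male). Their part in the pattern of the 4 KLF genes was not tested.

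**Figure D4:**
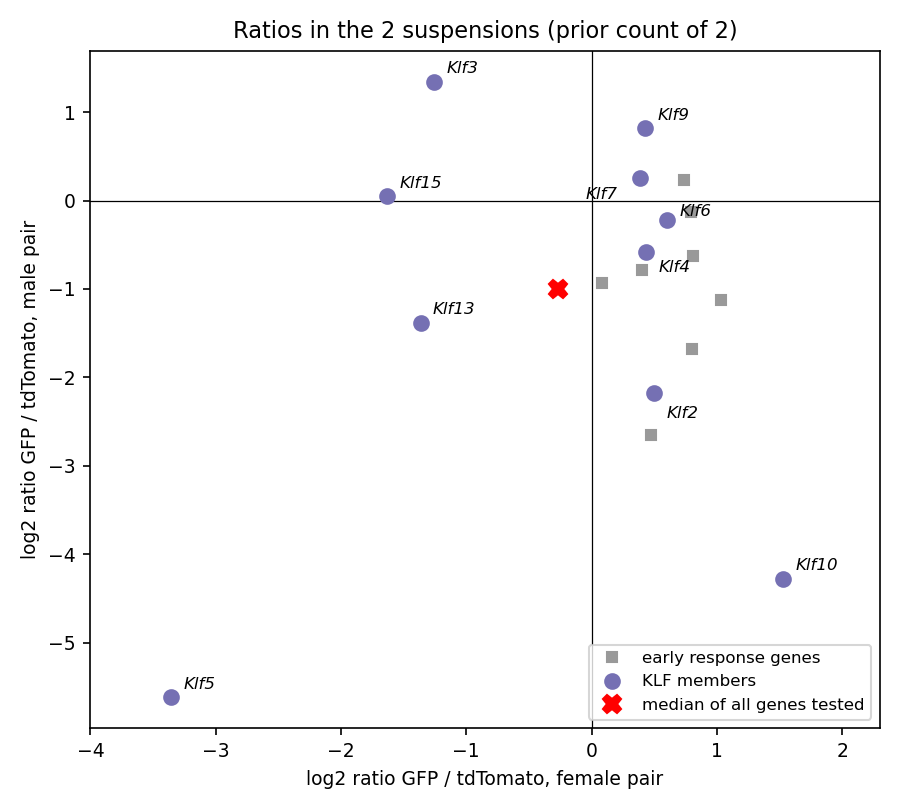
Log2 ratio of GFP over tdTomato (prior count of 2) in the female pair on the x axis and in the male pair on the y axis, 1 point a gene, with KLF members in purple, early response genes in grey and the median of all tested genes as a red cross. Klf2, Klf4, Klf6 (whose male ratio changes sign with DESeq2's size factors) and Klf10 lie to the lower right, as do 7 of 8 early response genes, while Klf5 and Klf13 lie in the lower left.

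The second comparison set the male pool against the female sample within each colour. edgeR called 0 of 10 members and 0% of all genes (262 at an unadjusted p under 0.05), limma-voom called 0 genes and DESeq2 called 0 of 10 members and 0.797% of all genes. No member had an unadjusted edgeR p under 0.05, the smallest being 0.152 for Klf3. The members differed more between the GFP libraries than between the tdTomato libraries, as did all genes. Between the GFP libraries 5 of 10 were at least 2-fold apart (68.3% of all genes), and between the tdTomato libraries 2 of 10 were, Klf5 and Klf10 (42.2% of all genes).

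Klf3 and Klf15 were higher in both male libraries than in both female libraries, 2 of 10 members (13.7% of all genes). Klf3 was 8.94-fold higher in male GFP than in female GFP (8.29 to 9.65) and 1.47-fold higher in male tdTomato than in female tdTomato (1.39 to 1.55). Klf15 was 5.95-fold higher (4.98 to 7.14) and 1.84-fold higher (1.66 to 2.05) in the same order. Klf10 was 28.0-fold below female GFP in male GFP (19.1 to 42.7) but 2.11-fold higher in male tdTomato than in female tdTomato (1.87 to 2.38). Klf2 was 5.41-fold below female GFP in male GFP (5.11 to 5.74), whereas the tdTomato libraries differed 1.18-fold (1.14 to 1.21). Klf7 in the tdTomato libraries differed by less than counting error, 1.04-fold (0.968 to 1.11). The 6 fibroblast markers summed to 573 CPM in male GFP against 3316 to 4053 CPM in the other libraries, with Dcn, Lum and Gsn lowest there. Pi16 was highest in male GFP (88.4 CPM), and Pdgfra and Col14a1 were low in both GFP libraries. The 5 pericyte markers summed to 2146 CPM in male GFP against 546 to 829 CPM elsewhere, of which Rgs5 gave 1689.9 CPM, while Notch3 had 0 counts in both GFP libraries. Their part in the KLF levels of male GFP was not tested.

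The remaining KLF and SP genes are the nearest relatives of the 10. Of 16 listed, 10 had values here and 7 were tested, of which edgeR called 0. Klf8, Sp1 and Sp4 were lower in GFP by 2-fold or more in both pairs. Klf8, a repressor related to Klf3, had no count in GFP of either sex and reached 18.2 (female) and 8.42 (male) CPM in tdTomato, at least 76.6-fold and at least 26.4-fold higher there, and DESeq2 called it (adjusted p = 0.0143). It entered the test through the tdTomato libraries alone. Sp1, a general activator of GC boxes, was at 0 counts (female) and 2.66 CPM (male) in GFP, with 26.5 and 6.76 CPM in tdTomato. Sp4 measured 0.317 (female) and 0.319 (male) CPM in GFP, with 41.9 and 4.10 in tdTomato. With 4 and 3 counts in GFP, it too entered the test through tdTomato alone. Sp3 measured 58.8 CPM (female) and 0 counts (male) in GFP, against 99.2 and 27.7 CPM in tdTomato.

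Others were seen in 1 or 2 libraries above all. Klf11, a relative of Klf10, went from 0 counts in female GFP and 17.7 CPM in female tdTomato to 61.5 CPM in male GFP, with 1.80 CPM in male tdTomato. Klf16 was highest in male GFP at 38.7 CPM, with 0 counts in female GFP and 1.20 and 2.37 CPM in tdTomato. Klf12 was highest in male tdTomato at 31.7 CPM, with 12 and 10 counts in the female GFP and tdTomato libraries and 1 count in male GFP. Sp2 had 17 counts in female tdTomato and 0 in the other 3, while Klf14 and Sp9 had at most 2 counts in any library. By counting error alone, 0 counts left room for as much as 0.238, 0.201, 0.319 and 0.216 CPM in the female GFP and tdTomato and the male GFP and tdTomato libraries.

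**Figure D5:**
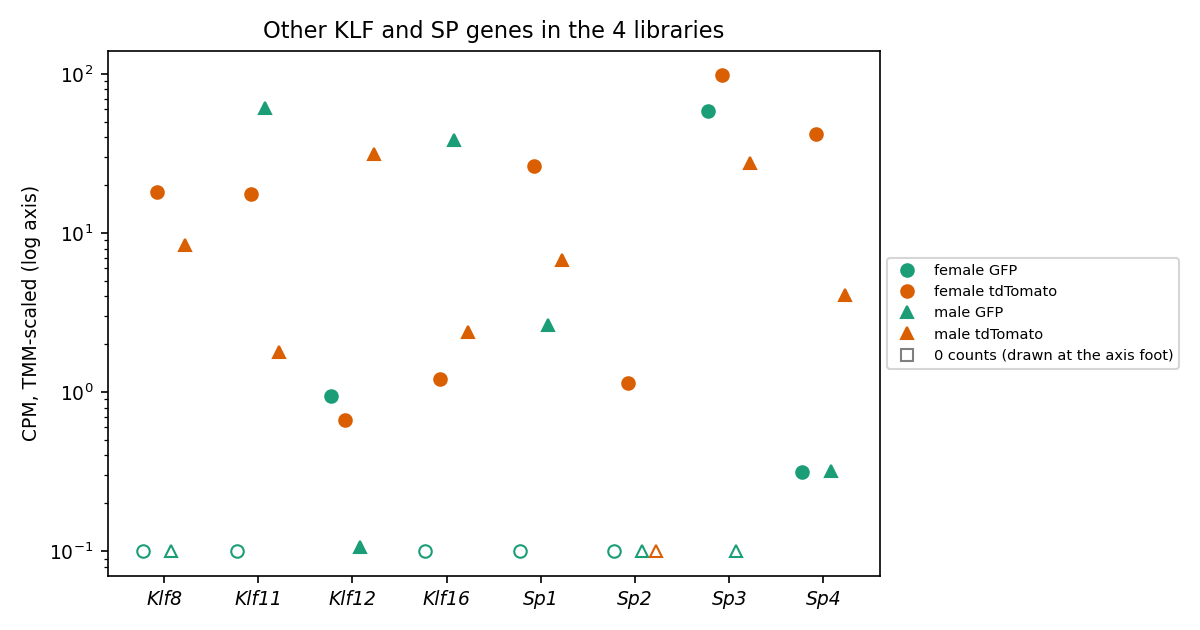
TMM-scaled CPM on a log axis for 8 other KLF and SP genes, with symbols as in the plot of the 10 members (circles female, triangles male, green GFP, orange tdTomato, open symbols 0 counts). Klf8 has 0 counts in both GFP libraries, while Klf11 and Klf16 are highest in male GFP at 61.5 and 38.7 CPM.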

How the data were processed

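The authors deposited 1 table of expected counts, estimated reads per gene with decimals and without scaling between libraries. The SMART-Seq v4 kit, which does not mark strand, was used per the labels' protocols to copy polyadenylated RNA, which was amplified by PCR, cut with Tn5 and read as pairs. Named in the submitters' processing notes are GRCm39 and the tools HISAT2, StringTie and fastp; the counting program and annotation release are not given in the sources used here. Symbols were matched by identifier for 76.4% of 32948 genes, and exon lengths came from GENCODE vM21.

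Counts were rounded. Genes with at least 10 counts in about 2 libraries (edgeR's filterByExpr) were tested, 15055 in all. CPM used TMM factors, and log2 ratios a prior count of 2. GFP and tdTomato of 1 suspension form a pair by the series' design, so the suspension was the block of the main fit. The test was edgeR's quasi-likelihood test (edgeR 4.0.16, R 4.3.3) with Benjamini-Hochberg adjustment at 0.05, tested on simulated data beforehand; limma-voom (limma 3.58.1) and DESeq2 1.42.0 served as alternatives. The p-values for colour rest on how far the colour difference varied between the 2 suspensions. Those for sex rest on how far the difference between suspensions varied between the 2 colours. Both also draw on the spread of all genes. Comparisons of 1 library with 1 library have no test; folds carry exact 95% binomial intervals.

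The members and lists were chosen with earlier results of these data known. All 10 members were named; of other lists, the 3 most abundant tested genes, and KLF and SP genes with at least 10 counts in a library. Map3k3, Mapk7, Map3k2, Ccm2, Heg1, S1pr1, Edn1, Lgals3, Wwp1 and Tsc22d3 were chosen after their values were seen.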

Additional observations from a re-analysis of the deposited data

Results flagged for a closer look

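In 6 members GFP was higher than tdTomato in one suspension and lower in the other, as in 26.8% (higher in the female pair) and 19.5% (lower in the female pair) of all genes. In 5 of them both folds lay outside counting error, while the male fold of Klf15 did not. The log2 ratio of GFP over tdTomato in the male pair minus that in the female pair was -5.81 for Klf10, -2.67 for Klf2, -1.01 for Klf4 and -0.83 for Klf6, and it was 2.60 for Klf3. With 1 library for each sex and colour, these differences were not tested, and sex, pooling, digestion and library cannot be told apart. With DESeq2's size factors the 2 pairs of Klf6 had the same sign.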

How the results depend on the processing

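Over 10 alternatives for each of the 10 members, 87 of 100 mean log2 ratios kept their direction and stayed short of the threshold, and 13 reversed. With DESeq2's size factors Klf4 turned from -0.07 to 0.11. With library totals alone Klf3 turned from 0.05 to -0.17 and Klf6 from 0.19 to -0.026. DESeq2 gave Klf4 0.11, and limma-voom gave Klf4 0.030 and Klf10 0.11. With 1 library left out, without the suspension block, the ranges were -1.98 to 0.40 for Klf2, -1.51 to 1.70 for Klf3, -0.41 to 0.37 for Klf4, -3.66 to 1.02 for Klf10, -2.05 to 0.56 for Klf15 and, with no change of sign, -6.27 to -2.67 for Klf5; for the colours 0 genes were called each time, and for the sexes 0 as well. Against 0 genes called by edgeR, DESeq2 called 1109 for the colours and 120 for the sexes, and with no filter on low counts edgeR called 2 for the sexes. The cause was not tested. In a count added after seeing the data, members at least 2-fold lower in GFP numbered 4 without female GFP and 3 without male GFP. Members at least 2-fold higher numbered 1 and 0. The same shares of all genes were not counted, so these numbers cannot be set against a background. DESeq2's size factors shifted every log2 ratio by 0.13 (female pair) and 0.24 (male pair), and library totals by -0.22 in both. The medians over members and both counts of members stayed on the same side under every scaling and prior count tried. With no suspension block 0 genes were called as well. Counts of 22 for Klf5 and 27 for Klf10 in GFP libraries limit those values.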
